A study of Homo sapiens with 14 samples.

Results

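Messenger RNA of the prostate cancer cell line LNCaP was compared with that of the prostate cancer cell line 22Rv1 in control cultures, without the inhibitor that the study tested. The comparison held 6 of the 14 libraries of the series, namely the 3 LNCaP and the 3 22Rv1 libraries from cells kept for 3 days with DMSO, the solvent. The other libraries were 3 of each line after 3 days with 1.5 µM SEL120-34A, which inhibits CDK8 and CDK19, the kinases of Mediator, and a DMSO and a SEL120-34A library of PC3 cells. LNCaP responds to the antiandrogen enzalutamide and 22Rv1 is resistant to it, so the comparison addressed how a sensitive and a resistant line differ at baseline. Per the study's methods, both lines were grown in the same medium with serum, and plates were coated with poly-D-lysine for LNCaP, so line and coating cannot be told apart. Each line stands for a single tumour, and nothing in the sources used here says that the libraries came from separate cultures, although the methods state biological replicates in general. The p-values therefore measure the spread between these libraries, which may be technical.

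Luminal cells form the secretory layer of the prostate gland. In such cells androgens act through a nuclear receptor that switches on genes for secreted proteases, among them the kallikreins KLK3 (prostate-specific antigen) and KLK2, and for enzymes of lipid and polyamine metabolism. Prostate tumours that escape androgen blockade are known to lose or keep this program, and may take up programs of other epithelia. LNCaP came from a lymph node metastasis. 22Rv1 came from a xenograft that had relapsed after castration of the host.

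The KLK3 and KLK2 genes carried some of the largest differences toward LNCaP, and the bases before their starts are shown here for orientation. They are the 250 bases before the annotated start, from RefSeq on GRCh38.p14, 5′ to 3′ on the plus strand. For KLK2 the RefSeq start lies within the longer gene span that GENCODE gives and that is printed with its values. Capitals mark a match to GAACANNNNGTNC, a relaxed form of the element bound by steroid receptors.
KLK3, chr19:50854665-50854914: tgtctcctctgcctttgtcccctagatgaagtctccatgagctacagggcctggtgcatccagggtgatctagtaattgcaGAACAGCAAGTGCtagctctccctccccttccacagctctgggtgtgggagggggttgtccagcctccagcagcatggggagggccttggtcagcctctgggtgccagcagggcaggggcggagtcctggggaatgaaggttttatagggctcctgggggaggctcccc
KLK2, chr19:50873189-50873438: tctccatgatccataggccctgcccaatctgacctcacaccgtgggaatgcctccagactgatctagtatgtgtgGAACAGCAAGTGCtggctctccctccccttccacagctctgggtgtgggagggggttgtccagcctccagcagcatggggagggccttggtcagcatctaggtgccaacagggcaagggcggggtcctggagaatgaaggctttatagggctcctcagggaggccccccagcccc
The kallikrein promoters shared a run of 80 identical bases, and their capitals began 169 bases before the start of KLK3 and 175 before that of KLK2. On either strand, GAACANNNNGTNC was found in 0.601% of the 35116 promoters of the same length in the table. It was found in 0.560% of the promoters of genes higher in LNCaP, 0.346% of those higher in 22Rv1 and 0.360% of those of tested genes not called. A match describes the letters only.

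Levels are CPM, counts scaled to a common library size after correction for composition, given as mean ± SD of 3 libraries unless per-library values are listed. Differences are fitted log2 differences, LNCaP minus 22Rv1, from edgeR's quasi-likelihood test over all 7086 genes tested, with Benjamini-Hochberg adjusted p-values and a threshold of 0.05 for a call. Total counts were 412881 to 759548 in LNCaP and 476455 to 777207 in 22Rv1, so that 3 counts stood for 3.58 to 7.85 CPM. The genes of the mitochondrial genome took 13.9% to 17.3% of the counts in LNCaP and 7.60% to 9.82% in 22Rv1. The 10 most abundant genes took 16.2% to 18.8% and 10.7% to 12.6%. Luminal markers, summed over 13 genes, reached 4709 to 5184 CPM in LNCaP and 1692 to 1828 CPM in 22Rv1. The 12 basal markers summed to 18.3 to 22.5 and 50.5 to 60.8 CPM, although 4 of them had no count in LNCaP and 6 none in 22Rv1. The basal markers CAV1 and CD44 supplied most of the 22Rv1 sum. The 20 stromal and immune markers summed to 22.5 to 28.8 and 1.87 to 5.96 CPM, with 11 of the 20 at 0 in both lines. Both lines thus carried luminal markers, at different levels.

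Nearly every second tested gene was called. Of the 7086 genes, 3473 (49.0%) passed the threshold, with 1701 higher in LNCaP (24.0%) and 1772 higher in 22Rv1 (25.0%). Without adjustment, 3853 had a p under 0.05. The libraries of the lines did not overlap for 4000 genes (56.4%). The difference was at least 1 on the log2 scale for 1842 of the called genes and at least 2 for 665. These shares are the background against which each group of genes below is read, together with the median difference of all tested genes, -0.03. Scaling by library totals alone moved that median to -0.24 and the calls to 1211 higher in LNCaP and 2362 higher in 22Rv1, so 33.9% instead of 49.0% of the calls were higher in LNCaP. In bulk RNA, fewer cells with a transcript and less transcript per cell cannot be told apart.

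**Figure D1:**
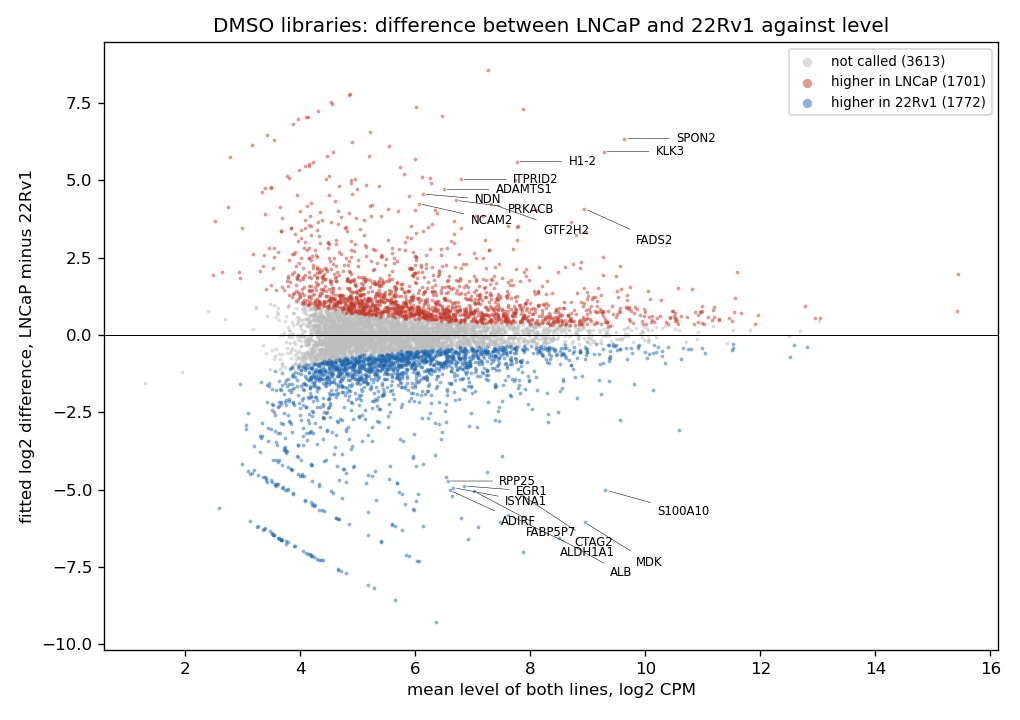
Fitted log2 difference (LNCaP minus 22Rv1, DMSO) against the mean level of both lines (log2 CPM) for the 7086 tested genes, coloured by call, with the 10 named genes of largest difference in each direction that had at least 10 counts in the lower line. The 1701 genes higher in LNCaP and 1772 higher in 22Rv1 lie on both sides of 0, and the diagonal streaks at the left hold genes with almost no counts in a line, whose fitted values are not bounds.

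Genes regulated by androgen were mostly higher in LNCaP. Of 33 tested genes of the list, 22 were higher in LNCaP, 5 were higher in 22Rv1 and 6 were not called, and their median difference was 1.43 against -0.03 over all genes. KLK3 (ENSG00000142515.16, chr19:50854915-50860764), which encodes prostate-specific antigen, stood at 1247, 1369 and 1039 CPM in the LNCaP libraries and at 13.7, 31.8 and 15.5 CPM in the 22Rv1 libraries. Every LNCaP library was far above every 22Rv1 library (log2 difference 5.93 ± 0.21 SE, adjusted p 6.24e-25). Its neighbour KLK2 (ENSG00000167751.13, chr19:50861568-50880567), a protease that activates prostate-specific antigen, was at 482, 534 and 533 against 35.3, 26.2 and 31 CPM (log2 difference 4.06 ± 0.19 SE, adjusted p 3.39e-21). The lines did not overlap here either. KLK3 and KLK2 are similar genes whose reads can be divided between them, so their separate values are uncertain.

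The fusion partner and membrane protease TMPRSS2 was at 121, 81.2 and 89.5 CPM in LNCaP and at 3.93, 11.2 and 3.58 CPM in 22Rv1 (log2 difference 4.02 ± 0.34 SE, adjusted p 6.71e-13). ADAMTS1, a secreted metalloprotease, was at 174 ± 51.5 against 6.22 ± 0.822 CPM (log2 difference 4.71 ± 0.31 SE, adjusted p 4.91e-16). SORD, the sorbitol dehydrogenase of the seminal fructose pathway, was at 389 ± 54 against 45.9 ± 3.75 CPM (log2 difference 3.08), and STEAP2, a metalloreductase of the membrane, at 190.2 ± 12.9 against 14.6 ± 2 CPM (3.70). PLPP1, TSC22D1, HOMER2 and ABCC4 were higher in LNCaP by 3.53, 2.57, 2.52 and 2.31 on the log2 scale. Members of the list also went the other way. KLK4, a kallikrein of the same cluster, was at 186, 157 and 139.8 CPM in LNCaP and 261, 236 and 225 CPM in 22Rv1 (log2 difference -0.57 ± 0.15 SE, adjusted p 0.00226), with every 22Rv1 library above every LNCaP library. With every library thinned to the smallest total, KLK4 differed by -0.49 and was not called (adjusted p 0.0913). SLC38A2, an amino acid transporter, was at 81.1 ± 17.2 against 322 ± 49.5 CPM (-1.99), and ZBTB10, a transcriptional repressor, at 29.7 ± 5.24 against 114 ± 48.6 CPM (-1.91). FKBP5, a chaperone that is among the best known androgen targets, was at 43 ± 5.85 in LNCaP and 59.98 ± 6.92 CPM in 22Rv1 and did not pass (adjusted p 0.113), but with library totals alone it was called higher in 22Rv1 (-0.67, adjusted p 0.0203).

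The luminal markers were also higher in LNCaP. Of 12 tested, 10 were higher in LNCaP, none in 22Rv1, and 2 were not called, with a median of 1.64. FOLH1, the prostate-specific membrane antigen, was at 734, 723 and 675 against 153, 163 and 128 CPM (log2 difference 2.28 ± 0.14 SE, adjusted p 4.42e-17). KRT8, a keratin of simple epithelium, was at 440.2 ± 50.6 against 175 ± 30.9 CPM (1.32). HOXB13, the homeobox factor of the prostate, was closer between the lines, at 288 ± 20.1 against 185 ± 9 CPM (log2 difference 0.64 ± 0.15 SE, adjusted p 0.000506), and its libraries did not overlap. FOXA1, the pioneer factor that opens chromatin for nuclear receptors, was at 511, 448 and 569 CPM in LNCaP and 475, 475 and 388 CPM in 22Rv1. These overlapped, and the difference of 0.21 did not pass (adjusted p 0.181).

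Of the 35 genes of the panel, 31 had enough counts to be tested, 15 were higher in LNCaP and 6 were higher in 22Rv1. Beside those described above and below, NR3C1, the glucocorticoid receptor gene, had 0 counts in LNCaP and 31 in 22Rv1 (at least 9.92-fold higher in 22Rv1 against 3 counts over the LNCaP libraries) and was too low to be tested. GSTP1, a glutathione transferase that is silenced in most prostate tumours, had 8 and 4 counts. VIM, the intermediate filament of mesenchymal cells, was at 29.1 ± 16.5 against 21.4 ± 4.37 CPM and did not pass (adjusted p 0.190).

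**Figure D2:**
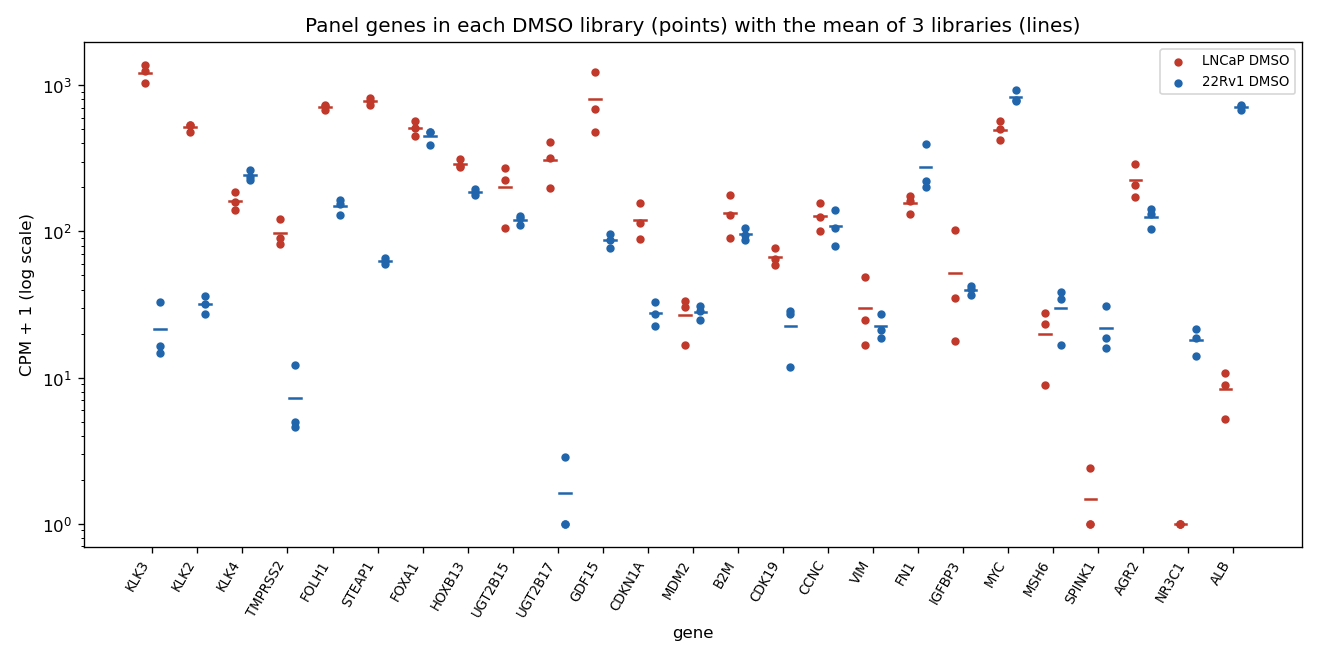
CPM + 1 on a log axis for panel genes in each DMSO library (points: 3 LNCaP in red, 3 22Rv1 in blue) with group means (lines). KLK3, KLK2, TMPRSS2, STEAP1 and UGT2B17 stand far higher in LNCaP, ALB and SPINK1 far higher in 22Rv1, and FOXA1, CCNC and MDM2 overlap between the lines.

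Enzymes that make, convert or clear androgens were divided. Of 15 tested, 7 were higher in LNCaP and 4 in 22Rv1, with a median of 0.35. UGT2B17 (ENSG00000197888.3, chr4:68537173-68576413), which attaches glucuronic acid to androgens for disposal, stood at 197, 408 and 317 CPM in LNCaP and had a single count in 22Rv1. Its summed counts of 523 and 1 gave a ratio of 545-fold, with a 95% counting interval of 97.3 to 21555. Its close relative UGT2B15 was at 104, 272 and 222 CPM in LNCaP and 109.9, 122 and 126 CPM in 22Rv1 (log2 difference 0.69 ± 0.23 SE, adjusted p 0.0120). The lowest LNCaP library of UGT2B15 lay below all 22Rv1 libraries, and the call was lost without LNCaP replicate 2 (0.46, adjusted p 0.107) or replicate 3 (0.55, adjusted p 0.0825), with library totals alone (0.47, adjusted p 0.101), with the DESeq2 Wald test and with limma-trend, which makes 5 of 17 alternatives. The coding sequences of these 2 genes are nearly identical, so their reads can be divided and the values are uncertain. DHRS7, a short-chain dehydrogenase, was at 1052, 974 and 716 against 84.4, 76.7 and 109 CPM (log2 difference 3.31 ± 0.16 SE, adjusted p 3.31e-20), and RDH11, a reductase of retinal, at 225 ± 25.5 against 92 ± 20.8 CPM (1.30). HSD17B11, a 17-beta-hydroxysteroid dehydrogenase, was higher in 22Rv1, at 8.63 ± 2.62 against 67.2 ± 3.45 CPM (-2.97), and so were HSD17B12 (-1.47) and PAPSS1 (-0.89), which makes the sulfate donor of steroid sulfation. Thinned to the smallest total, HSD17B12 differed by -1.04 (adjusted p 0.260) and PAPSS1 by -0.61 (adjusted p 0.0658), and neither was called. AKR1C3, which makes testosterone from its precursor, had only 1 and 10 counts, too few to be tested.

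Transcription factors of epithelial lineages were divided. Of 19 tested, 8 were higher in LNCaP and 6 in 22Rv1. EHF, an ETS factor of epithelial differentiation, was at 255, 233 and 259 CPM in LNCaP and 17.7, 18.7 and 15.5 CPM in 22Rv1 (log2 difference 3.86 ± 0.20 SE, adjusted p 3.09e-19). ETV1, an ETS oncogene that is rearranged in LNCaP, was at 101, 115 and 95.1 against 13.7, 9.36 and 10.7 CPM (log2 difference 3.17 ± 0.28 SE, adjusted p 2.28e-12). GATA2, a partner of steroid receptors, was at 269 ± 48.7 against 119 ± 22.5 CPM (1.19), and CEBPA and RXRA differed by 2.27 and 2.74. In 22Rv1 another ETS factor, ETV4, was present at 49.1, 46.8 and 40.6 CPM with 2 counts in all LNCaP libraries (40.3-fold, with a 95% counting interval of 10.8 to 338). ELF3, an ETS factor of epithelia, was at 28.7 ± 4.73 in LNCaP and 154 ± 12.2 CPM in 22Rv1 (-2.46).

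The tested transcripts of secreted liver and gut proteins were mostly higher in 22Rv1. Of 45 genes listed, 22 had no count in either line, and of the 7 tested 6 were higher in 22Rv1 and 1 in LNCaP. Their median was -4.76, or -3.75 with genes at the floor placed at their bound. A gene passed the filter on low counts mostly through the line in which it was high, so the count says little of the remaining members. ALB (ENSG00000163631.17, chr4:73397114-73421482), serum albumin, was at 4.23, 7.85 and 9.79 CPM in LNCaP and 679, 726 and 728 CPM in 22Rv1. This was the largest difference named toward 22Rv1 with at least 10 counts in the lower line (log2 difference -6.57 ± 0.23 SE, adjusted p 6.13e-25). AMBP, the precursor of a plasma protease inhibitor, had 0 and 71 counts (at least 22.7-fold higher in 22Rv1). SPINK1, a trypsin inhibitor of the pancreas that is overexpressed in a subset of prostate tumours, had 1 and 42 counts (40.3-fold, with a 95% counting interval of 6.85 to 1630.3). CLU, clusterin, was at 91.7 ± 19.5 against 543 ± 67 CPM (-2.55). The exception was AGR2, a disulfide isomerase of secretory epithelium, at 290.2, 207 and 172 CPM in LNCaP and 141, 103 and 131 CPM in 22Rv1 (log2 difference 0.84 ± 0.17 SE, adjusted p 0.0001).

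Surface antigens, among them drug targets of prostate cancer, were divided. Of 26 tested, 11 were higher in LNCaP and 8 in 22Rv1, with a median of 0.30. STEAP1, a metalloreductase of the prostate cell surface, was at 817, 783 and 733 CPM against 64.8, 61.8 and 58.4 CPM (log2 difference 3.66 ± 0.15 SE, adjusted p 1.87e-22), and the proteases and antigens HPN, TMEFF2 and CD276 differed by 3.25, 1.77 and 1.37. TSPAN8, a tetraspanin of gastrointestinal tumours, was at 4.23, 5.24 and 0 CPM in LNCaP and 155, 88 and 134 CPM in 22Rv1 (log2 difference -5.37 ± 0.40 SE, adjusted p 8.57e-15). CD24, a small mucin-like anchor, was at 10.4 ± 5.39 against 70.2 ± 6.36 CPM (-2.79), and CD55, which shields cells from complement, at 5.08 ± 2.98 against 37 ± 1.47 CPM (-2.69). The lines did not overlap for any of these.

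Epithelial junction and keratin genes were higher in LNCaP for 11 of 24 tested and in 22Rv1 for 5, with a median of 0.48. ST14, matriptase, and CLDN3, a claudin, differed by 1.49 and 1.32, while CTNNB1, beta-catenin, and ESRP1, a splicing factor of epithelia, were higher in 22Rv1 (-0.85 and -1.32). Thinned to the smallest total, ESRP1 differed by -0.91 and was not called (adjusted p 0.108). Mesenchymal and matrix genes did not go in a single direction, with 9 of 21 higher in LNCaP and 8 in 22Rv1. THBS1, thrombospondin, was at 214, 144 and 112 against 0, 15 and 13.1 CPM (log2 difference 3.94 ± 0.34 SE, adjusted p 6.77e-13), and CALD1, a regulator of actin and myosin, at 363 ± 33 against 53.4 ± 5.07 CPM (2.78). TNC, tenascin, was at 1.41, 2.62 and 4.19 against 60.9, 97.3 and 60.8 CPM (log2 difference -4.57 ± 0.41 SE, adjusted p 2.37e-12), and ITGB5, an integrin subunit, differed by -2.06. FN1, fibronectin, was at 175, 131 and 159 CPM in LNCaP and 222, 397 and 202 CPM in 22Rv1 (log2 difference -0.77 ± 0.21 SE, adjusted p 0.00239). Without 22Rv1 replicate 2, the library that held the highest value, the difference of FN1 was -0.42 and the call was lost (adjusted p 0.0859).

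Of the markers of other epithelial cell types, 2 of the 12 basal and 2 of the 18 neuroendocrine genes had enough counts to be tested. CAV1, CD44 and SCG3 passed the filter on low counts through 22Rv1 alone, so that their direction follows from it. CAV1, caveolin, had 3 counts in LNCaP and 48 in 22Rv1 (15.4-fold, with a 95% counting interval of 4.95 to 77.1), and CD44, a hyaluronan receptor, had 3 and 30 (9.60-fold, with a 95% counting interval of 2.99 to 49.2). ENO2, the neuronal enolase, was at 5.63, 5.24 and 9.79 against 173, 161 and 199 CPM (log2 difference -4.59 ± 0.28 SE, adjusted p 1.71e-17), and SCG3, a granin of secretory vesicles, had 1 and 80 counts (76.8-fold, with a 95% counting interval of 13.4 to 3071). Summed over the list, the neuroendocrine markers reached 31.0 to 46.1 CPM in LNCaP and 230 to 295 CPM in 22Rv1. ENO2 supplied most of the latter, and 8 of the 18 genes had no count in either line. None of the 20 stromal and immune markers was abundant enough to be tested.

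Targets of the p53 pathway, which halts the cell cycle and repairs or removes damaged cells, were more often higher in LNCaP. Of 33 tested, 19 were higher in LNCaP and 5 in 22Rv1, with a median of 0.82. GDF15, a secreted stress cytokine, varied widely among LNCaP libraries, at 476, 689 and 1232 CPM, but all were above the 86.4, 95.5 and 76.3 CPM of the 22Rv1 libraries (log2 difference 3.24 ± 0.25 SE, adjusted p 5.23e-14). CDKN1A, the p21 inhibitor of cyclin-dependent kinases, was at 155, 113 and 88.1 against 21.6, 31.8 and 26.2 CPM (log2 difference 2.16 ± 0.25 SE, adjusted p 1.72e-09). PHLDA3, a repressor of AKT, was at 155 ± 43.7 against 31.5 ± 3.65 CPM (2.25), and SESN1, a sestrin that restrains growth signalling, at 91.5 ± 11.6 against 12.9 ± 6.43 CPM (2.78). MDM2, which degrades p53 and is itself a target, was equal in summed counts, with 50 in each line (adjusted p 0.942). The 5 exceptions included BBC3, the cell death gene PUMA, at 17.4 ± 4.39 against 70.1 ± 16.3 CPM (-1.93), and SFN, a 14-3-3 protein, with 3 and 146 counts (46.7-fold, with a 95% counting interval of 15.7 to 229).

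Genes of the phosphoinositide 3-kinase pathway, which carries growth signals to AKT and mTOR, were higher in LNCaP for 13 of 26 tested and in 22Rv1 for 4, with a median of 0.67. PIK3CD, a catalytic subunit, had 78 and 2 counts (40.6-fold, with a 95% counting interval of 10.9 to 341). IGFBP2, a binding protein of insulin-like growth factors, was among the most abundant called genes, at 1080.4, 1118 and 941 against 214, 168 and 169 CPM (log2 difference 2.52 ± 0.14 SE, adjusted p 2.2e-18). AKT1 and EIF4EBP1 differed by 0.69 and 1.08. IRS2, an adaptor of the insulin receptor, GSK3A, a kinase that AKT restrains, and RHEB, an activator of mTOR, were higher in 22Rv1 (-3.18, -1.81 and -0.87). IGFBP3 overlapped, at 101, 34 and 16.8 against 41.2, 39.3 and 35.8 CPM, and a single library set its direction. Its difference was 0.47 (adjusted p 0.262), -0.73 without LNCaP replicate 1 (adjusted p 0.0849) and 0.96 without LNCaP replicate 3 (adjusted p 0.00722).

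Growth factor receptors and their early targets were higher in 22Rv1 for 11 of 23 tested genes and in LNCaP for 5, with a median of -0.60. Within the list, 17 genes that respond early to the ERK kinases or feed back on them were read as a group after their values had been seen. Of the 12 tested, 8 were higher in 22Rv1 and 1 in LNCaP, with a median of -1.94. Members such as SPRY4 and DUSP6 passed the filter on low counts mostly through 22Rv1. Because of this and of the choice after the values, the count and the median of this group carry no weight. These 12 are among the 23 tested and hold 8 of the 11 genes higher in 22Rv1. The direction of the whole list thus rests on them and is not read as a result. EGR1, an immediate early transcription factor, was at 320.0, 213 and 139.5 CPM in 22Rv1. In LNCaP it was at 0, 0 and 18.2 CPM, so a single library held all 13 counts (log2 difference -4.89 ± 0.43 SE, adjusted p 1.93e-12). Without LNCaP replicate 3 the LNCaP libraries had no EGR1 count. FOS, its early partner, was at 54.9, 18.3 and 46.1 against 410.3, 256 and 215 CPM (log2 difference -2.74 ± 0.28 SE, adjusted p 1.17e-10). The feedback inhibitors SPRY4 and DUSP6 each had 1 count in LNCaP, against 93 and 39 in 22Rv1, while SPRY1, of the same family as SPRY4, was at 85.5 ± 15.9 in LNCaP and 10.6 ± 5.52 CPM in 22Rv1 (2.83). ID1, an inhibitor of differentiation that BMP signals induce, was at 80.9 ± 44.5 against 442 ± 73.1 CPM (-2.41). ERBB2, the HER2 receptor, was higher in LNCaP, at 46.3 ± 6.38 against 11.4 ± 3.06 CPM (2.05).

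Genes of DNA replication and of mitosis were more often higher in 22Rv1. For replication, 23 of 46 tested genes were higher in 22Rv1 and 6 in LNCaP (median -0.42, and 27 and 2 with library totals alone), and for mitosis 19 of 51 and 3 (median -0.35). MCM7, a subunit of the replicative helicase, was at 197, 202 and 214 CPM in LNCaP and 554, 496 and 614 CPM in 22Rv1 (log2 difference -1.44 ± 0.15 SE, adjusted p 1.74e-10). CDT1, which loads that helicase, was at 68.1 ± 7.81 against 167 ± 44.5 CPM (-1.26), and UNG, which removes uracil from DNA, at 102 ± 11.7 against 338 ± 43.5 CPM (-1.72). UBE2S, the chain-elongating enzyme of the anaphase-promoting complex, was at 358, 542 and 453 against 1488, 1423 and 1119.9 CPM (log2 difference -1.58 ± 0.15 SE, adjusted p 2.59e-11), and MKI67, the proliferation marker, differed by -1.23. CDK1, the mitotic kinase, went the other way, at 114 ± 4.55 against 54 ± 13.3 CPM (1.10), as did CDKN3 (0.93). BUB3, of the spindle checkpoint (adjusted p 0.0468), lost its call when any of the 6 libraries was left out, and TK1, thymidine kinase (adjusted p 0.0129), lost it without LNCaP replicate 1 or 22Rv1 replicate 2.

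DNA repair genes were higher in 22Rv1 for 13 of 37 tested and in LNCaP for 5 (median -0.43). MSH6, of mismatch repair, was at 19 ± 9.90 against 28.8 ± 11.6 CPM and did not pass (adjusted p 0.245). LIG1, the ligase of replication, was at 18.2 ± 5.49 against 67.7 ± 16.3 CPM (-1.94), and DDB1, of the damage-binding complex, at 71.8 ± 4.99 against 167 ± 17 CPM (-1.21). MGMT, which removes alkyl groups from guanine, was at 78.9, 68.1 and 74.1 CPM in LNCaP with 1 count in 22Rv1 (141-fold, with a 95% counting interval of 24.8 to 5594). DDB2 and APEX1 were higher in LNCaP by 1.28 and 0.67.

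Genes of antigen presentation by MHC class I, which shows peptides to T cells, and genes induced by interferon differed in their balance. Of 12 tested in the first list, 6 were higher in LNCaP and 2 in 22Rv1 (median 0.56), and of 12 in the second 1 and 6 (median -0.84). The second list held 59 genes, of which 12 had no count in LNCaP, 26 none in 22Rv1 and 11 none in either. More of its members were thus without a count in 22Rv1 than in LNCaP, and its tested members do not stand for the whole list. The heavy chain HLA-B was at 33.8, 57.6 and 51.7 CPM in LNCaP and 3.93, 0 and 3.58 CPM in 22Rv1 (log2 difference 4.01 ± 0.49 SE, adjusted p 5.79e-09) and HLA-C at 111, 141 and 133 against 9.82, 13.1 and 13.1 CPM (log2 difference 3.36 ± 0.28 SE, adjusted p 2.24e-13). Neither overlapped between the lines, but they are similar and polymorphic genes whose reads can be lost or divided. B2M, the light chain, was at 132 ± 44.1 against 94.8 ± 8.99 CPM, and its call (log2 difference 0.48, adjusted p 0.0400) was lost in 10 of 17 alternatives, among them the fit without LNCaP replicate 1 (0.15, adjusted p 0.609) and those without each of the 22Rv1 libraries. CANX and CALR, chaperones of the heavy chain, were higher in 22Rv1 (-1.36 and -0.95). ISG15, a ubiquitin-like protein, was at 104 ± 15.3 against 233 ± 10.7 CPM (-1.13), and IFITM3, a membrane protein that blocks virus entry, was the exception, at 151, 194 and 149.6 against 27.5, 13.1 and 26.2 CPM (log2 difference 2.82 ± 0.23 SE, adjusted p 2.87e-13).

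Cytosolic ribosomal proteins were mostly higher in LNCaP. Of 75 tested, 52 were higher in LNCaP and 7 in 22Rv1, with a median of 0.49. With library totals alone the counts were 37 and 10. RPL5 was at 3977, 4241 and 4309 CPM in LNCaP and 1900.4, 1733 and 1839 CPM in 22Rv1 (log2 difference 1.20 ± 0.12 SE, adjusted p 1.84e-11), and RPS27L, a variant that p53 induces, at 387 ± 42.5 against 101 ± 8.98 CPM (1.92). RPL8 and RPS19 were higher in 22Rv1 (-0.50 and -0.46). RPL39L, a paralog of RPL39 used in the male germ line, had 0 counts in LNCaP and 317 in 22Rv1 (at least 101-fold higher in 22Rv1). Its sequence is close to that of RPL39, so its value is uncertain. Of the 70 tested ribosomal proteins of mitochondria, 27 were higher in LNCaP and 9 in 22Rv1 (20 and 16 with library totals alone). Genes of the mitochondrial genome were called higher in LNCaP for 8 of 14, with none called higher in 22Rv1 (6 and 0 with library totals alone). The share of counts from these genes differed between the lines as given above, and its part in the ribosomal results was not tested. MT-RNR2, the large ribosomal RNA, was at 82271, 69386 and 59094 against 25061, 13591 and 15889 CPM (log2 difference 1.95 ± 0.18 SE, adjusted p 3.06e-12), and MT-CO3, a subunit of cytochrome oxidase, at 54934 ± 4670.5 against 32445 ± 4326 CPM (0.76). Nuclear genes of oxidative phosphorylation were near the background, with 17 of 73 higher in LNCaP and 12 in 22Rv1 (median 0.05), and with library totals alone their balance turned to 8 and 22.

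Lipid genes held large single differences without a common direction. Of 43 tested genes of cholesterol and fatty acid synthesis, 15 were higher in LNCaP and 7 in 22Rv1 (9 and 14 with library totals alone), with a median of -0.03 equal to that of all genes. FADS2, the desaturase that starts the synthesis of long polyunsaturated fatty acids, was at 745, 1060.3 and 972 CPM in LNCaP and 66.7, 39.3 and 56.1 CPM in 22Rv1 (log2 difference 4.09 ± 0.17 SE, adjusted p 2.07e-22). ACSL1, which activates fatty acids, and ME1, which supplies NADPH, differed by 3.60 and 3.13. The mevalonate enzymes MVD and IDI1 were higher in 22Rv1, at 26.8 ± 12.5 against 97.7 ± 16.3 and 85.3 ± 26.2 against 247 ± 25.1 CPM (-1.88 and -1.58).

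Genes of the NRF2 and glutathione system were called often in both directions, with 17 of 44 higher in LNCaP and 13 in 22Rv1. MGST1 and GSTM3, glutathione transferases, were at 783 ± 8.36 against 154 ± 18.8 CPM (2.36) and 175 ± 19 against 21.4 ± 1.10 CPM (3.03), and GPX8, a peroxidase of the endoplasmic reticulum, had 71 and 0 counts (at least 24.6-fold higher in LNCaP). SQSTM1, the autophagy receptor p62, was at 203, 202 and 182 CPM in LNCaP and 1390.0, 1183 and 1337 CPM in 22Rv1 (log2 difference -2.74 ± 0.13 SE, adjusted p 1.21e-20), GPX4, which protects membrane lipids from oxidation, at 503 ± 41.8 against 1737 ± 164 CPM (-1.78), and ALDH1A1, which makes retinoic acid, at 5.63, 7.85 and 6.99 against 379, 264 and 510.5 CPM (log2 difference -5.81 ± 0.38 SE, adjusted p 3.26e-16).

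Glycolysis and hypoxia genes were higher in LNCaP for 11 of 35 tested and in 22Rv1 for 9. PFKP, a phosphofructokinase, had 108 and 3 counts (37.5-fold, with a 95% counting interval of 12.5 to 185), and CA12, a carbonic anhydrase, was at 28.5 ± 7.17 against 239 ± 50.8 CPM (-2.98). Metallothioneins and zinc transporters were higher in 22Rv1 for 5 of 15 and in LNCaP for 2. Their median of -0.04 was close to that of all tested genes, -0.03, and with the inhibitor it was 0.36, on the LNCaP side. SLC30A4, which exports zinc, had 76 and 3 counts (26.4-fold, with a 95% counting interval of 8.69 to 131), and the importers SLC39A4 and SLC39A6 were higher in 22Rv1 (-1.12 and -1.06), although SLC39A4 was not called in libraries thinned to the smallest total (-0.70, adjusted p 0.0795). The proteasome was balanced, with 7 of 32 higher in LNCaP and 8 in 22Rv1 (2 and 13 with library totals alone). PSMD5, a chaperone of its assembly, had 1 count in LNCaP and 64 in 22Rv1 (61.5-fold, with a 95% counting interval of 10.6 to 2465).

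MYC, the oncogene that drives ribosome production, was higher in 22Rv1, at 499, 565 and 422 CPM in LNCaP and 775, 934 and 788 CPM in 22Rv1 (log2 difference -0.75 ± 0.13 SE, adjusted p 7.83e-06), with no overlap. Of 64 tested genes of ribosome biogenesis and growth that MYC is known to drive, 12 were higher in LNCaP and 11 in 22Rv1 (median -0.03), and with library totals alone the counts were 7 and 22. MXD4, an antagonist of MYC, was at 100.1 ± 13.1 against 21.4 ± 5.67 CPM (2.17).

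The Mediator complex, whose kinases are the target of the inhibitor of the study, differed little as a whole. Of 22 tested subunits, 5 were higher in LNCaP and 3 in 22Rv1 (median -0.04, and 3 and 5 with library totals alone). CDK19 was at 63.4, 57.6 and 75.5 CPM in LNCaP and 27.5, 26.2 and 10.7 CPM in 22Rv1 (log2 difference 1.73 ± 0.30 SE, adjusted p 9.74e-06), without overlap, and with libraries thinned to the smallest total it differed by 1.18 and was not called (adjusted p 0.0675). Its paralog CDK8 had 22 and 23 counts and MED12 had 16 and 31, too few to be tested. Their cyclin CCNC was at 126 ± 27.3 against 108 ± 30.5 CPM and did not pass (adjusted p 0.399), and neither did MED13, with 24 and 41 counts (adjusted p 0.186). Without LNCaP replicate 3, which held most of its LNCaP counts, MED13 was lower in LNCaP (-1.70, adjusted p 0.0178). MED13L, which can take the place of MED13, was at 6.36 ± 1.29 in LNCaP and 50.2 ± 6.87 CPM in 22Rv1 (log2 difference -2.97 ± 0.41 SE, adjusted p 9.71e-08).

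Families of germline and positional genes were divided member by member. Of 18 tested cancer-testis genes of the X chromosome, which are normally silent outside the germ line, 6 were higher in LNCaP and 8 in 22Rv1. Their median was 0.23, on the LNCaP side. Of the 18, 8 had at most 3 counts in a line and passed the filter mostly through the other line. Their direction follows from it, so these counts say little. The tested GAGE genes and MAGEA6 were higher in LNCaP, with GAGE12G at 59.2, 60.2 and 53.1 CPM and no count in 22Rv1 (at least 35.8-fold higher in LNCaP), and the tested CTAG genes, SSX2, SSX3, MAGEA1 and MAGEA4 were higher in 22Rv1. MAGEA4 was at 2.82, 7.85 and 1.40 against 287, 238 and 281 CPM (log2 difference -6.22 ± 0.29 SE, adjusted p 7.24e-21), CTAG1B at 3.21 ± 0.881 against 467 ± 126 CPM (-7.03) and CTAG2 at 11.9 ± 1.25 against 451 ± 68.4 CPM (-5.19), whereas MAGEA3 and MAGEA2 did not pass (0.33 and 0.18). These families hold near-identical copies, so the values of single members are uncertain. Among HOX genes, HOXA10 had 63 and 1 counts (65.6-fold, with a 95% counting interval of 11.4 to 2632), and HOXB7, HOXB8 and HOXB9 were on the 22Rv1 side, with 1 against 67, 0 against 36 and 6 against 186 counts. Of the 5 tested HOX genes, 3 had at most 3 counts in a line, so their direction also follows from the filter. The long noncoding RNA SCHLAP1, known from aggressive prostate tumours, had 42 counts in LNCaP and 0 in 22Rv1 (at least 14.6-fold higher in LNCaP), and SNHG7 was at 65.9 ± 7.68 against 298 ± 23.9 CPM (-2.15). In all, 8 of 18 tested noncoding RNAs were higher in LNCaP and 5 in 22Rv1.

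Among genes with at least 10 counts in the lower line, the largest differences toward LNCaP by rank were those of SPON2, KLK3, H1-2, ITPRID2, ADAMTS1, NDN, PRKACB, NCAM2, GTF2H2 and FADS2. SPON2 (ENSG00000159674.12, chr4:1166932-1208962), a secreted matrix protein of the prostate, was at 1617, 1461 and 1629 CPM in LNCaP and 21.6, 16.8 and 19.1 CPM in 22Rv1 (log2 difference 6.34 ± 0.20 SE, adjusted p 1.99e-26). ITPRID2, which binds the receptor for inositol trisphosphate, was at 215 ± 10.5 against 6.22 ± 0.822 CPM, PRKACB, a catalytic subunit of protein kinase A, at 199 ± 9.08 against 9.06 ± 3.03 CPM, and NDN, an imprinted growth suppressor, at 134 ± 31.1 against 5.46 ± 2.14 CPM (5.03, 4.35 and 4.56). NCAM2, an adhesion molecule, differed by 4.25. GTF2H2, of the transcription and repair factor TFIIH, differed by 4.24, but it has near-identical copies and its value is uncertain. The linker histone H1-2 was at 470.5, 432 and 375 CPM in LNCaP and 3.93, 13.1 and 8.35 CPM in 22Rv1 (log2 difference 5.61 ± 0.27 SE, adjusted p 1.37e-20).

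H1-2 did not stand alone among histone genes, which were collected after its value had been seen. Of 82 replication-type histone genes, 6 were tested, and these were called higher in LNCaP. Some of them passed the filter on low counts only through LNCaP, as H2AC6 and H2BC12 had 3 and 2 counts in 22Rv1, so this count carries no weight. The summed level of the 82 was 796 to 1083 CPM in LNCaP and 49.1 to 71.1 CPM in 22Rv1, and H1-2 held a large part of the LNCaP sum. The libraries read 3′ ends, and how well they capture transcripts of such histone genes was not tested, so the sums may not stand for their full level. Of 8 tested histone variants outside these clusters, 3 were higher in LNCaP and 2 in 22Rv1. Among the variants H2AJ, also chosen after its value was seen, was at 411, 552 and 436 CPM in LNCaP and 1.96, 3.74 and 2.39 CPM in 22Rv1, or 815 and 5 counts (log2 difference 7.31 ± 0.28 SE, adjusted p 4.49e-24). Histone genes share sequence, so their separate values are uncertain.

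Toward 22Rv1 the same ranking gave ALB, MDK, ALDH1A1, CTAG2, FABP5P7, ADIRF, S100A10, ISYNA1, EGR1 and RPP25. MDK (ENSG00000110492.17, chr11:46380756-46383837), midkine, a heparin-binding growth factor, was at 22.5, 2.62 and 12.6 CPM in LNCaP and 1041, 861 and 1010.2 CPM in 22Rv1 (log2 difference -6.06 ± 0.21 SE, adjusted p 6.13e-25). S100A10, the partner of annexin A2 at the membrane, was at 43.7, 36.7 and 32.2 against 1492, 831 and 1358 CPM (log2 difference -5.02 ± 0.21 SE, adjusted p 1.87e-22). ISYNA1, which makes inositol phosphate from glucose phosphate, was at 6.36 ± 1.29 against 196 ± 31.8 CPM (-4.94), and ADIRF, a factor of fat cell differentiation, at 5.48 ± 1.40 against 188 ± 15.3 CPM (-5.02). RPP25, a subunit of ribonuclease P, differed by -4.73. FABP5P7 (-5.06) is a pseudogene copy of FABP5, whose reads it may hold.

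Some genes were nearly confined to either line. In 22Rv1, by level, these were RPL39L, SNCG, CTAG1A, PRSS21, ABCB1, CSRP2, SSX2, SV2A, PPP1R14A and KLK11. ABCB1, the drug efflux pump P-glycoprotein, was at 100.1, 148 and 103 CPM in 22Rv1 with 1 count in LNCaP (207-fold, with a 95% counting interval of 36.8 to 8229). SNCG, gamma-synuclein, had 3 and 264 counts (84.5-fold, with a 95% counting interval of 28.6 to 412), and SV2A, a protein of synaptic vesicles, 0 and 189 (at least 60.5-fold higher in 22Rv1). PRSS21, a serine protease of the testis, had 1 and 246 (236-fold, with a 95% counting interval of 42 to 9367), and KLK11, a kallikrein, 2 and 181 (86.9-fold, with a 95% counting interval of 23.7 to 723). In LNCaP they were UGT2B17, TFPI, KCNC2, H2BC12, MGMT, ALOX15, H2AC6, BASP1, TBX1 and GAGE12G. TFPI, the inhibitor of the tissue factor pathway of coagulation, was at 169, 147 and 211 CPM in LNCaP (170.3-fold, with a 95% counting interval of 46.8 to 1412). KCNC2, a voltage-gated potassium channel, had 237 and 1 counts (247-fold, with a 95% counting interval of 43.9 to 9790.0), ALOX15, a lipoxygenase, 131 and 2 (68.2-fold, with a 95% counting interval of 18.5 to 569), and TBX1, a developmental T-box factor, 106 and 0 (at least 36.8-fold higher in LNCaP). Over all tested genes, 145 had at most 3 counts in LNCaP and 50 in 22Rv1.

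**Figure D3:**
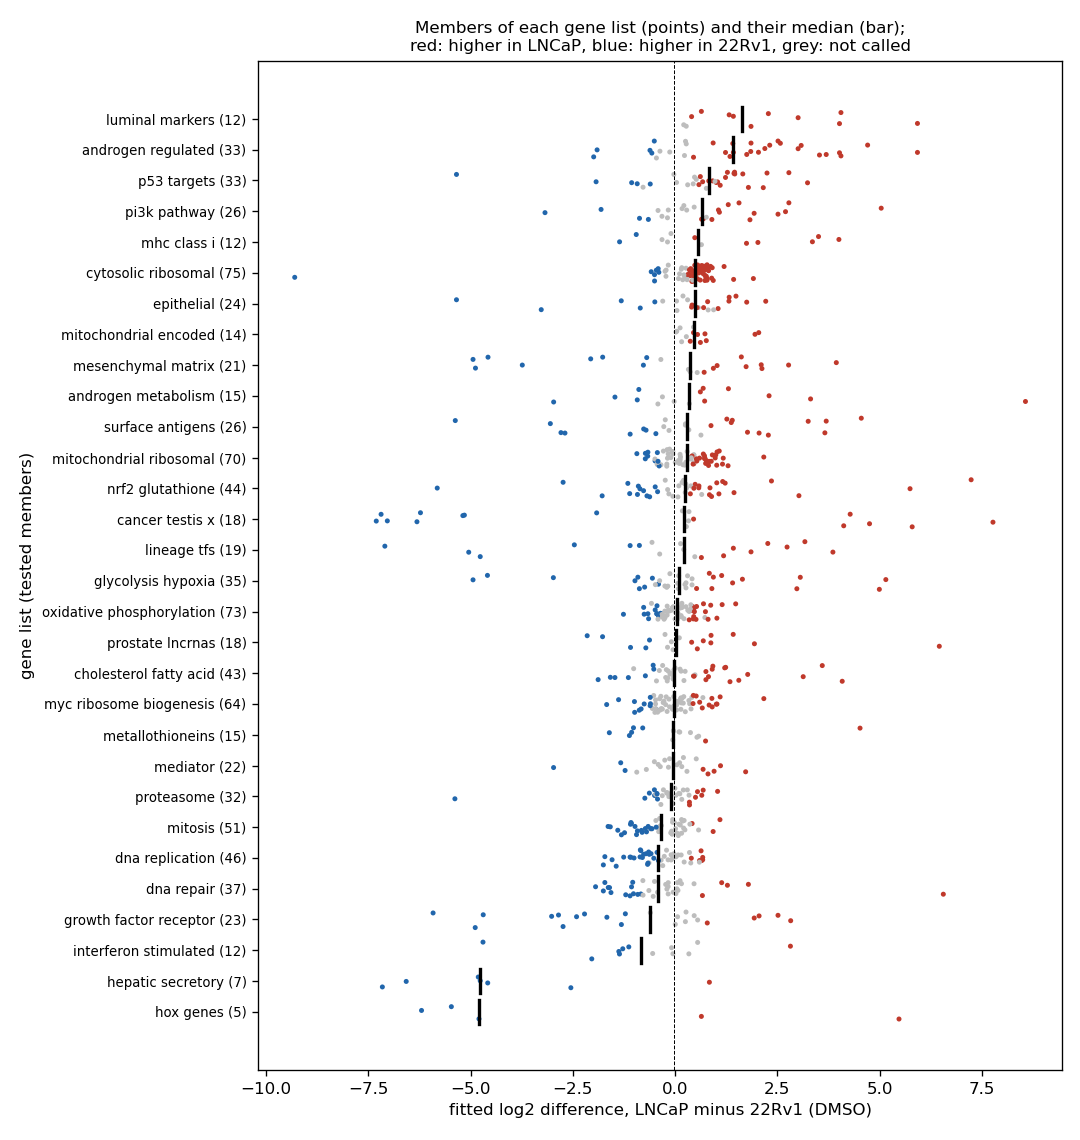
Fitted log2 difference (LNCaP minus 22Rv1, DMSO) of each tested member (points) of 30 gene lists with at least 5 tested members, with the list's median (bar) and that of all genes, -0.03 (dashed line). Luminal markers (median 1.64) and androgen-regulated genes (1.43) lie highest and the hepatic (-4.76) and HOX (-4.79) lists lowest. With members at the floor placed at their bound (4 of 7 hepatic and 3 of 5 HOX genes) the latter medians are -3.75 and -3.53, HOX members lie on both sides of 0, and points beyond about 4 on either side include genes with at most 3 counts in a line, whose fitted values are not bounds.

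The shares of genes higher in each line differed among chromosomes. Of the tested genes, those on chromosome 12 were called higher in LNCaP for 9.30% and in 22Rv1 for 45.5% (398 genes, median -0.47), and those on chromosome 7 for 12.7% and 42.5% (353 genes, median -0.40), against 24.0% and 25.0% over all genes. Chromosomes 18, 3, 16 and 8 had medians of -0.29, -0.28, -0.25 and -0.24. The highest medians of nuclear chromosomes were those of 15 (0.28), X (0.24), 2 (0.23) and 14 (0.21). Taking each LNCaP library against each 22Rv1 library, the median of chromosome 12 ranged from -0.53 to -0.44 and that of chromosome 7 from -0.42 to -0.35, and that of chromosome 15 from 0.19 to 0.44. In windows of 25 Mb with at least 20 tested genes, medians were below 0 in all 7 windows of chromosome 7, all 5 of chromosome 12, all 4 of chromosome 16 and all 3 of chromosome 18. Chromosome 2 was mixed, with windows from -0.74 (50 to 75 Mb, where 62.5% of 56 genes were higher in 22Rv1) to 1.02 (150 to 175 Mb, where 68.6% of 35 were higher in LNCaP). Genes of a chromosome are not independent replicates, and no test was made. With library totals alone the medians of chromosomes 12 and 7 were -0.68 and -0.62, and 3 instead of 12 of the 23 nuclear chromosomes had a median above 0, under a scaling that moved the median of all genes to -0.24.

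**Figure D4:**
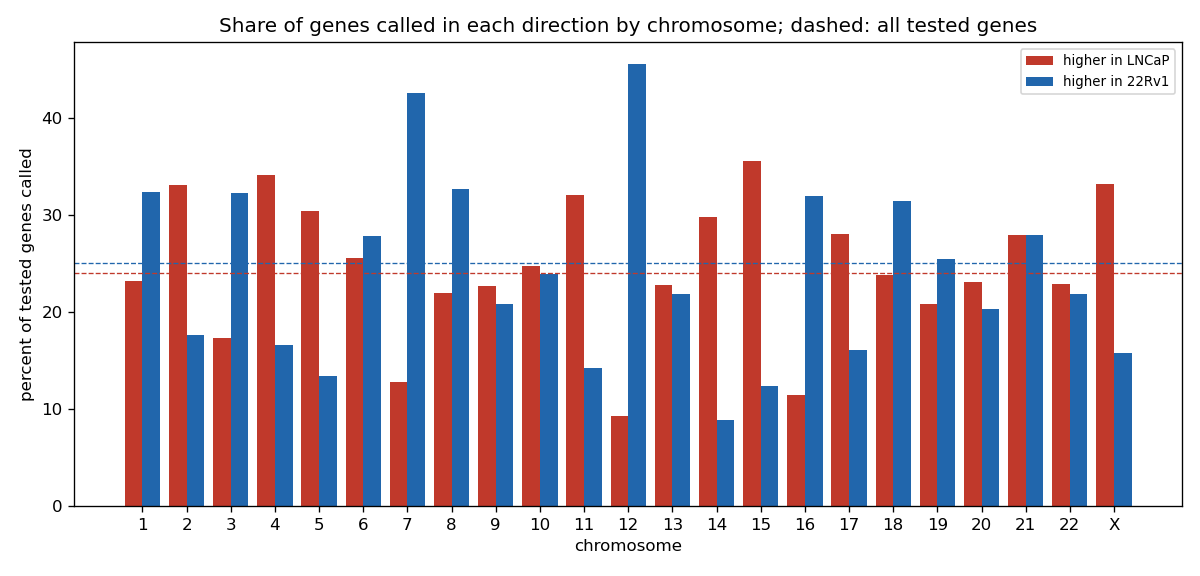
Percent of tested genes on each chromosome called higher in LNCaP (red) or in 22Rv1 (blue) in DMSO libraries, with the shares over all genes, 24.0% and 25.0%, as dashed lines. Chromosomes 7 and 12 have 42.5% and 45.5% of their genes higher in 22Rv1, and among nuclear chromosomes 15, 4 and X have the largest shares higher in LNCaP (35.5%, 34.1% and 33.2%).

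The libraries with SEL120-34A gave a second comparison of the lines that shares no library with the first, although both came from the same fit. It called 2889 of the 7086 genes (40.8%). Of the 3473 genes called in DMSO, 3298 (95.0%) had the same sign there, against 5766 (81.4%) of all tested genes, and 1803 of the 1842 with a difference of at least 1. Called in both with the same sign were 2257, which is 65.0% of the DMSO calls and 78.1% of the SEL120-34A calls. Across genes, which are not independent replicates, Pearson's r of the differences was 0.90. KLK3, for example, differed by 4.51, ALB by -4.40, MDK by -5.45 and SPON2 by 6.04 with the inhibitor, against 5.93, -6.57, -6.06 and 6.34 without it. The medians of the androgen-regulated and p53 lists were 1.20 and 1.00 with the inhibitor and those of the replication and mitosis lists -0.71 and -0.59. Several other lists were less shifted with the inhibitor than with DMSO. The median for growth factor receptors and early targets, a list that holds the early genes set aside above, was -0.05 against -0.60. Medians were 0.16 against 0.49 for cytosolic ribosomal proteins. For mitochondrial ribosomal proteins they were 0.06 against 0.28, for interferon genes -0.42 against -0.84, and for androgen metabolism 0.04 against 0.35. The chromosome 12 and 7 medians were -0.44 and -0.40 with the inhibitor.

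Only 3 genes were called in both with opposite signs, among them FN1 and the NOTCH-related repressor HES6. FN1 was higher in 22Rv1 with DMSO (-0.77) and higher in LNCaP with SEL120-34A (1.30, adjusted p 3.36e-06), at 607 ± 212 CPM in LNCaP and 247 ± 6.64 CPM in 22Rv1. HES6 differed by 1.10 and -0.78, and the third gene, GCLC, which starts glutathione synthesis, by -0.90 and 0.93. A test of the difference between the 2 contrasts gave 52 genes past an adjusted p of 0.05.

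**Figure D5:**
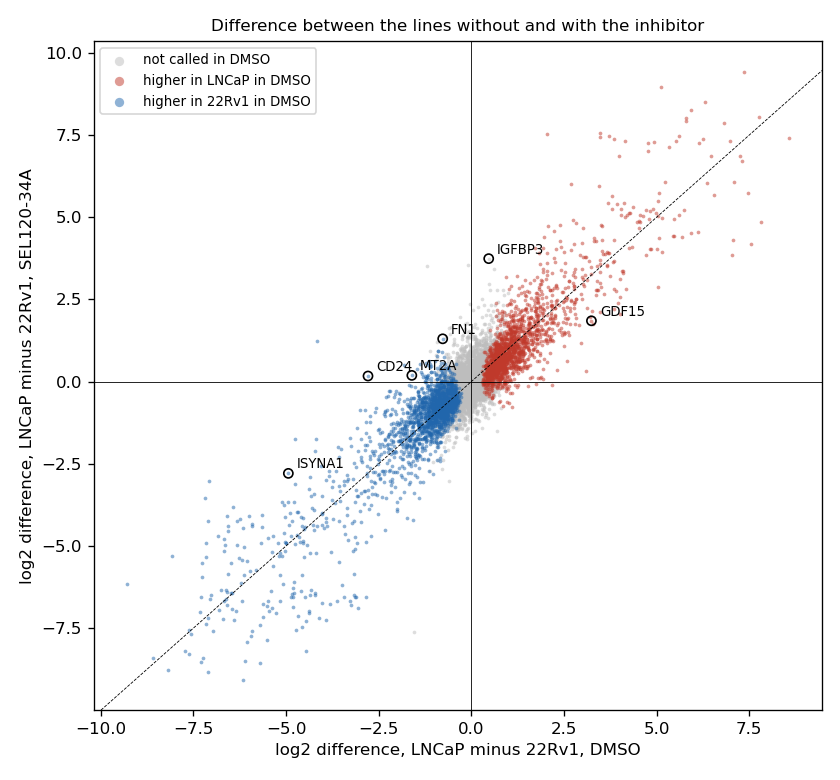
Log2 difference between the lines (LNCaP minus 22Rv1) in SEL120-34A libraries against that in DMSO libraries for 7086 tested genes, coloured by the DMSO call; the dashed line marks equality and circles mark the 6 named genes whose differences themselves differed between the conditions. Of the 3473 genes called in DMSO, 3298 have the same sign on both axes, and FN1, CD24, MT2A and IGFBP3 lie away from the dashed line.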

How the data were processed

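BRB-seq reads the 3′ ends of transcripts from pooled, barcoded samples. The authors, per the labels and methods, aligned reads with STARsolo to GRCh38.p13 and deposited raw counts per gene for 62703 GENCODE genes. Whether molecular identifiers were collapsed is not given in the sources used here, so intervals and floors cover counting error alone. Deposited log2 CPM values of the authors, for 9638 genes, were used in an alternative. Coordinates came from GENCODE 44 on GRCh38 (62639 identifiers found).

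Groups and replicate numbers came from the labels, which named no sequencing batch. The growth protocol in the labels names 22Rv1 cells alone, for the LNCaP libraries too, so the line was taken from each sample's title. Counts of the 12 LNCaP and 22Rv1 libraries were fitted with edgeR 4.0.16 in R 4.3.3, with a mean for each of 4 groups, TMM scaling, edgeR's filter on low counts (7086 genes), the quasi-likelihood test with 8 residual degrees of freedom and Benjamini-Hochberg adjustment over all genes tested. The biological coefficient of variation was 11.1%. CPM used TMM factors over all 14 libraries, the scale of the deposited values. Genes with at most 3 counts over the libraries of a line got no fitted fold. With 0 counts, 3 counts over the group gave a lower bound, and with 1 to 3 the ratio has an exact 95% interval. Between replicates the counts spread beyond counting error (chi-square per degree of freedom 1.43 to 2.51), so none was taken as a copy of another library's reads. This spread cannot tell separate cultures from repeated libraries of the same culture. On simulated counts with 200 genes changed by 1.5 on the log2 scale, the LNCaP against 22Rv1 DMSO test on 6535 genes recovered 93.0% of the 186 changed genes tested, and 7.49% of its calls were false. The simulation gave both lines the same profile apart from these genes, changed equally up and down, and gave all genes the same spread. In the data 49.0% of the genes were called, so these rates do not carry over to them.

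Named genes were a panel of 35, the 10 largest differences per direction with a mean of at least 20 counts, no overlap and at least 10 counts in the lower line, the 10 highest genes per direction with at most 3 counts in the other line, and up to 3 called members per direction of 33 gene lists. Other genes named were chosen after their values were seen. The members, lists and rules were chosen with earlier results of these data known. Results of some genes of the panel and lists are counted but not reported here. Alternatives were DESeq2 size factors, library totals, no filter, at least 10 counts in each DMSO library, the DMSO libraries alone, PC3 added, a replicate block, mitochondrial genes removed, libraries thinned to the smallest total, each DMSO library left out, the Wald test of DESeq2 1.42.0, stricter thresholds, and limma-trend (limma 3.58.1) with the deposited log2 values.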

Additional observations from a re-analysis of the deposited data

Results flagged for a closer look

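The difference between the lines itself differed between DMSO and SEL120-34A libraries for 6 of the named genes, by edgeR's test of that difference over all genes. For FN1 the value in DMSO minus that in SEL120-34A was -2.07 (adjusted p 5.07e-05), from -0.77 to 1.30. For CD24 it was -2.96 (adjusted p 0.000129), from -2.79 to 0.17, and for IGFBP3 -3.27 (adjusted p 0.000129), from 0.47 to 3.74. MT2A, a metallothionein, gave -1.79 (adjusted p 0.0237), from -1.61 to 0.19. ISYNA1 gave -2.15 (adjusted p 0.0336), from -4.94 to -2.79, and kept its direction. GDF15 gave 1.39 (adjusted p 0.0399), from 3.24 to 1.85, also in an unchanged direction.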

How the results depend on the processing

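Both counts of called genes stayed within 1.5 times of their value except under 3 alternatives. Requiring at least 10 counts in each DMSO library left 986 genes higher in LNCaP, 1048 higher in 22Rv1 and 1931 called genes with the same sign in SEL120-34A libraries, thinning to the smallest total left 805, 787 and 1517, and a log2 difference of at least 1 left 860 and 982. The first tested 4492 genes and the second 5317, fewer than the 7086 of the main fit. Other alternatives also differed in the number of genes tested, up to 21395 with no filter on low counts. Scaling by library totals put the median of all genes at -0.24, and 13 instead of 20 of the 33 lists had more members higher in LNCaP than in 22Rv1, and 3 instead of 12 chromosomes had a median above 0. Leaving out each DMSO library gave 1456 to 1656 genes higher in LNCaP and 1566 to 1673 higher in 22Rv1. Of the genes called, thinning kept 1521 of 2762 it could test in the same direction, the count minimum 1887 of 2017, limma-trend 2652 of 3473 and the DESeq2 Wald test 2728 of 3473. The replicate block gave 1708 and 1799 calls, 3435 of them shared. The numbers were not taken to pair the samples, since the deviations of same-numbered LNCaP and 22Rv1 libraries correlated at -0.07, -0.10 and -0.003.

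Of 195 called genes that the naming rule covers, not all of them printed, 172 were called in every alternative that gave them a value. Signs turned in 10 cases, none of which passed the threshold. With library totals alone CCNC was at -0.0062, FOXA1 at -0.0041 and MDM2 at -0.18. MDM2 was at -0.14 without LNCaP replicate 1, -0.04 without LNCaP replicate 3, -0.08 without 22Rv1 replicate 3, -0.0079 with the DESeq2 Wald test and -0.11 with limma-trend. Over the fits that left out a library, MDM2 ranged from -0.14 to 0.23, IGFBP3 from -0.73 to 0.96 (lowest without LNCaP replicate 1) and VIM from -0.031 to 0.76 (lowest without LNCaP replicate 3). The causes were not tested. The comparison of signs with SEL120-34A libraries could not be made from the DMSO libraries alone.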

Other observations

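Between the rules for naming genes lay 174 called genes with 4 to 9 counts in the lower line and no overlap, 73 higher in LNCaP and 101 higher in 22Rv1, which were looked at after their values were seen. Over all tested genes, 24.0% were called higher in LNCaP and 25.0% higher in 22Rv1, and 56.4% did not overlap. The 174 were selected by call, overlap and low counts in a line, and passed the filter mostly through the other line. Their number and balance are therefore not read as a result. On the LNCaP side they included RAB25, a small GTPase of epithelial recycling endosomes (217 against 4 counts), NR2F2, an orphan nuclear receptor (196 against 5), SLC22A3, an organic cation transporter (254 against 7), and KCNMA1, a calcium-activated potassium channel (278 against 9). On the 22Rv1 side were HSPB6, a small heat shock protein (4 against 460 counts), VGF, a secreted neuropeptide precursor (6 against 408), PGAM2, the muscle phosphoglycerate mutase (9 against 666), and NOS3, the endothelial nitric oxide synthase (4 against 237).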
